A study of Mus musculus with 11 samples.

Results

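Arg1, 8 further genes used to tell macrophage states apart and the leukocyte gene Ptprc were followed through every library of mouse brain tissue from normal brain and from tumors driven by NRAS or by PDGFB. The 10 genes were taken by symbol from the 24320 genes of the deposited table: Arg1, Arg2, Nos2, Mrc1, Cd163, Msr1, Trem2, Gpnmb, Plac8 and Ptprc. All 10 were found, once each.

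Macrophages in a tumor come from microglia, the resident phagocytes of the brain, and from monocytes of the blood. Arginase, encoded by Arg1 and Arg2, splits arginine into ornithine and urea, and the inducible nitric oxide synthase, encoded by Nos2, uses the same arginine to make nitric oxide. Interleukin 4 and related signals are known to raise Arg1 and the mannose receptor Mrc1, and interferon gamma with bacterial products to raise Nos2. The scavenger receptors Msr1 and Cd163, the lipid-sensing receptor Trem2 and the lysosomal glycoprotein Gpnmb mark further macrophage states, and Ptprc, the CD45 phosphatase, is carried by nearly all leukocytes.

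Tumors arose from Sleeping Beauty transposon plasmids injected into a brain ventricle of newborn mice, which encoded the transposase, a luciferase reporter, the SV40 large T antigen and either constitutively active NRAS (G12V) or PDGFB. There were 11 libraries: 3 of wild-type control brain, 4 of NRAS tumor and 4 of PDGFB tumor. Tumors were cut out under GFP light at mid-stage, so each library holds tumor cells, host brain and infiltrating cells together. Strain is given as B6 for 10 libraries and as FVB for normal brain 3, while the series text names FVB mice, and age at collection and sex are not stated. Titles match normal brain 1 to NRAS tumor 2 and normal brain 3 to PDGFB tumor 1, and nothing says that samples of a group were separate animals, so each p-value reflects only how far these samples spread, which may be technical.

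RNA levels are given as FPKM, which scales fragments by transcript length and by the library's total, so levels of different genes can be set side by side. Total read counts are not in the table, and steps between low values gave relative depths of 0.783 to 1 of the deepest library. Nras stood at 82.0 to 154 FPKM in NRAS tumors against 13 to 17.5 in normal brain, and Pdgfb at 745 to 1564 in PDGFB tumors against 6.12 to 7.19, which matched the labels. The neuron gene Snap25 stood at 1010 to 1236 FPKM in normal brain, 80.3 to 534 in NRAS tumors and 43.3 to 265 in PDGFB tumors. Title numbers form 2 series, 1834 to 1838 (the normal brains with NRAS tumors 1 and 2) and 2038 to 2046 (the PDGFB tumors with NRAS tumors 3 and 4).

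NRAS tumors carried far more RNA of Arg1, Plac8, Gpnmb, Msr1 and Ptprc than either normal brain or PDGFB tumors, with more Trem2 as well. Between the tumor models Mrc1 was also higher in NRAS tumors, and Cd163 went the other way. Differences below were tested on log2(FPKM + 1) with limma, and calls are Benjamini-Hochberg adjusted p-values under 0.05 over 14491 genes. In NRAS tumors 7 members were higher than in normal brain and 3 did not pass, where 62.3% of all genes tested were called, 32% higher and 30.3% lower. The ranges of those 7 lay wholly above normal brain, as did 33.2% of all genes. In PDGFB tumors against normal brain 3 members were higher and 1 was lower, beside 58.5% of all genes, 29.3% higher and 29.2% lower, and 5 members lay wholly above and 2 wholly below normal brain, beside 33.8% and 32% of all genes. Between NRAS and PDGFB tumors 7 were higher and 1 lower, beside 26.6% of all genes, 14.3% higher and 12.2% lower. Here 6 members lay wholly above PDGFB tumors and 1 wholly below, beside 12.9% and 11.6% of all genes. The median log2 fold change of the members was 2.50, 0.54 and 1.76 in these comparisons, against 0.01, 0.04 and -0.04 for all genes tested. Arg1 and Nos2 passed the filter on low values only through NRAS tumors, Cd163 only through PDGFB tumors and Arg2 only through normal brain, so those 4 had to differ somewhere. Both comparisons with normal brain share the same 3 normal libraries.

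**Figure D1:**
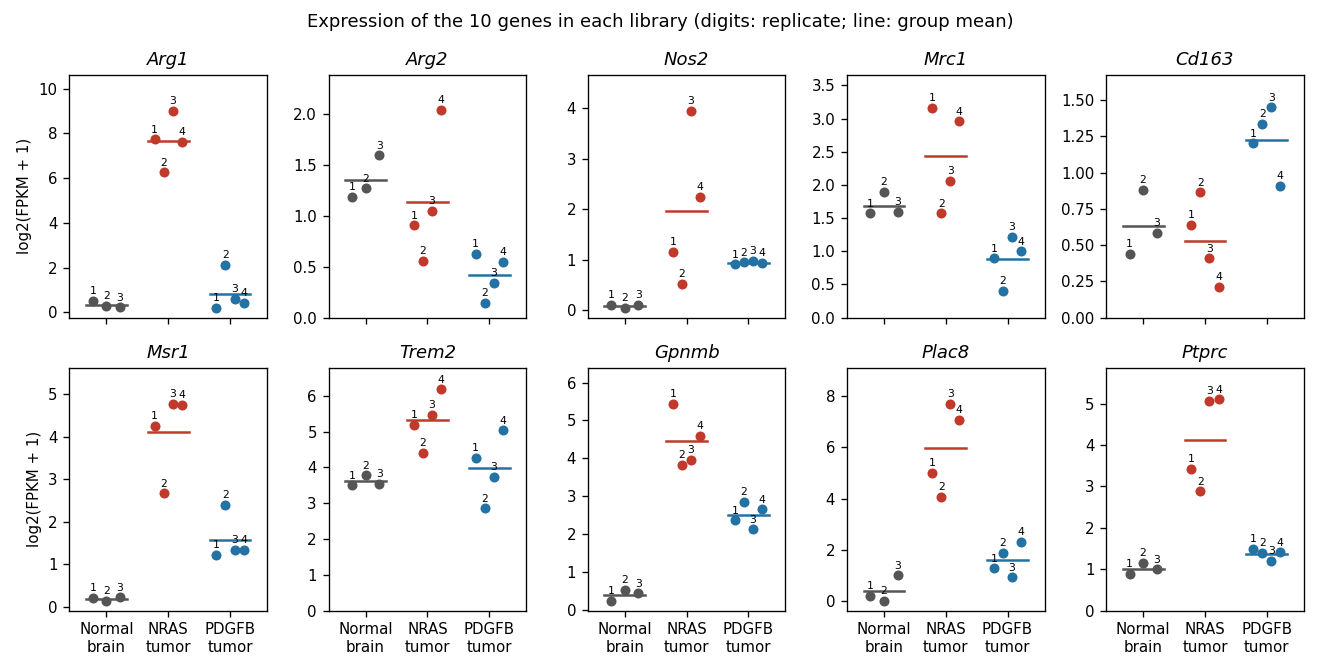
Each panel plots log2(FPKM + 1) of 1 gene, with a point per library, its replicate number above it and a line at the group mean. Arg1 stood at 75.7 FPKM or more in all 4 NRAS tumors and at 3.39 or less in every other library, while Cd163 was highest in the PDGFB tumors.

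Arg1 encodes the cytosolic arginase, and lies on the minus strand of chromosome 10 at chr10:24915221-24927484 (GRCm38). It stood at 214, 75.7, 518 and 199 FPKM (NRAS tumors 1 to 4), 0.154, 3.39, 0.508 and 0.344 (PDGFB tumors 1 to 4) and 0.441, 0.215 and 0.169 (normal brains 1 to 3). All NRAS tumors were thus far above all other libraries, and 3 of 4 PDGFB tumors lay near the level of normal brain. The log2 fold change was 7.32 ± 0.58 (SE) against normal brain (adjusted p = 6.81e-06, limma) and 6.83 ± 0.54 against PDGFB tumors (adjusted p = 5.07e-05). PDGFB tumors did not pass against normal brain (0.50 ± 0.58, adjusted p = 0.490), and the value was 0.06 without PDGFB tumor 2. In bulk tissue, more Arg1 per cell and more cells that carry it cannot be told apart, and this holds for every gene here. Ranked among all genes of a library by FPKM, Arg1 came 299th, 1033rd, 133rd and 351st in NRAS tumors 1 to 4, and between 10674th and 15798th in the other 7 libraries. It was the highest of the 10 genes in each of the 4 NRAS tumors, where Trem2 held that place in all normal brains and in PDGFB tumors 1, 3 and 4.

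Arg2 encodes the mitochondrial arginase (chr12:79130777-79156301, plus strand). The coding sequences of Arg1 and Arg2 are 972 and 1065 bases long and share 62.6% of 971 aligned bases, and the longest run they share has 12 bases. It lies at bases 523 to 534 of Arg1 and 580 to 591 of Arg2, counted from the start codon, and is shown in capitals within 72 bases of each GENCODE M21 coding sequence (GRCm38), since reads can be split between 2 genes only where their transcripts match over a read's length.
Arg1: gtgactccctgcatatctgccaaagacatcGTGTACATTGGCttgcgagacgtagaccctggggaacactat
Arg2: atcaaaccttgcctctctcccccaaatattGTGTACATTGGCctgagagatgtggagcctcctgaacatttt
Arg2 did not follow Arg1. It stood at 0.871, 0.469, 1.07 and 3.10 FPKM (NRAS tumors 1 to 4), 0.539, 0.106, 0.266 and 0.464 (PDGFB tumors 1 to 4) and 1.27, 1.41 and 2.01 (normal brains 1 to 3). PDGFB tumors lay below all normal brains and fell by 0.93 ± 0.30 (log2, adjusted p = 0.0198), a call lost without normal brain 3 (adjusted p = 0.0764). NRAS tumors overlapped both groups, and neither comparison passed (-0.21, adjusted p = 0.558 against normal brain, and 0.72, adjusted p = 0.0773 against PDGFB tumors). The first passed without NRAS tumor 4 (-0.51, adjusted p = 0.0491), and the second without NRAS tumor 2 (0.92, adjusted p = 0.0252), with a pseudocount of 0.1 (adjusted p = 0.0494), and within a series or with it as a covariate. The gene overlaps Vti1b and the antisense Gm48780, and whether counting used strand is not known from the labels, so their reads cannot be told apart. The ratio of Arg1 to Arg2 in FPKM ran from 64.0 to 485 in NRAS tumors, 0.286 to 32.0 in PDGFB tumors and 0.0842 to 0.347 in normal brain.

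Nos2 (chr11:78920787-78960254, plus strand) also rose in NRAS tumors, with the widest spread of the 10 genes among NRAS tumors, 32.8 times from lowest to highest. It stood at 1.22, 0.443, 14.5 and 3.77 FPKM (NRAS tumors 1 to 4), 0.878, 0.931, 0.970 and 0.922 (PDGFB tumors 1 to 4) and 0.0753, 0.0367 and 0.0769 (normal brains 1 to 3). Every tumor was above every normal brain, and NRAS tumor 2 lay below all PDGFB tumors. NRAS tumors passed against normal brain (log2 fold change 1.88 ± 0.61, adjusted p = 0.0194), and the call was lost without normal brain 2 (adjusted p = 0.0521), in a fit of those groups alone (adjusted p = 0.0537) and with the title series as a covariate (0.75, adjusted p = 0.135). PDGFB tumors did not pass against normal brain (0.86 ± 0.61, adjusted p = 0.251), although their 4 values differed by only 1.11 times from lowest to highest. That test shares its estimate of spread with the NRAS tumors, and a fit of those 2 groups alone passed (adjusted p = 0.000116). Between the models Nos2 did not pass (1.03 ± 0.56, adjusted p = 0.207), and passed without NRAS tumor 2 (1.51, adjusted p = 0.0416). The ratio of Arg1 to Nos2 in FPKM ran from 35.7 to 174 in NRAS tumors and from 0.176 to 3.64 in PDGFB tumors, where Nos2 was the higher of the pair in tumors 1, 3 and 4.

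Mrc1, Cd163 and Msr1 encode scavenging receptors, and they took different courses. Mrc1 (CD206, chr2:14229392-14332057) stood at 7.93, 1.97, 3.17 and 6.78 FPKM (NRAS tumors 1 to 4), 0.860, 0.320, 1.32 and 0.995 (PDGFB tumors 1 to 4) and 1.97, 2.71 and 2.01 (normal brains 1 to 3). Each PDGFB tumor was below each normal brain and each NRAS tumor, while NRAS tumor 2 lay at the level of normal brains 1 and 3. The models differed (log2 fold change 1.56 ± 0.33, adjusted p = 0.00619), whereas NRAS tumors against normal brain (0.75 ± 0.35, adjusted p = 0.0842) and PDGFB tumors against normal brain (-0.81 ± 0.35, adjusted p = 0.0703) did not pass. Without NRAS tumor 2 both comparisons with normal brain passed (1.04, adjusted p = 0.0102, and -0.81, adjusted p = 0.0272). The PDGFB difference also passed without NRAS tumor 1 (adjusted p = 0.0464), in a fit of those 2 groups alone (adjusted p = 0.00830) and with a pseudocount of 0.1 (adjusted p = 0.0377). Mrc1 also hosts the microRNA gene Mir511 on the same strand.

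Cd163, the receptor for haptoglobin bound to hemoglobin (chr6:124304656-124330527), was the only member lower in NRAS than in PDGFB tumors. It stood at 0.560, 0.819, 0.328 and 0.159 FPKM (NRAS tumors 1 to 4), 1.30, 1.52, 1.73 and 0.876 (PDGFB tumors 1 to 4) and 0.356, 0.843 and 0.498 (normal brains 1 to 3). All PDGFB tumors lay above all other libraries, the lowest of them by a narrow margin over normal brain 2. The log2 fold change was -0.69 ± 0.19 in NRAS against PDGFB tumors (adjusted p = 0.0192) and 0.59 ± 0.20 in PDGFB tumors against normal brain (adjusted p = 0.0260). These values rest on few reads, and calls were lost by leaving out single libraries: the first without NRAS tumor 3 or 4 or PDGFB tumor 3 (adjusted p = 0.0510 to 0.0614), the second without normal brain 1 or 3 or PDGFB tumor 2 or 3 (0.0592 to 0.10). The ratio of Mrc1 to Cd163 ran from 2.40 to 42.7 in NRAS tumors, 3.21 to 5.53 in normal brain and 0.210 to 1.14 in PDGFB tumors.

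Msr1, the class A scavenger receptor that takes up modified lipoproteins (chr8:39581685-39642673, minus strand), rose in both models. It stood at 18.2, 5.36, 26.5 and 25.9 FPKM (NRAS tumors 1 to 4), 1.34, 4.26, 1.54 and 1.55 (PDGFB tumors 1 to 4) and 0.167, 0.109 and 0.170 (normal brains 1 to 3). The 3 groups did not overlap, with NRAS tumors highest. The log2 fold change was 3.92 ± 0.47 for NRAS against normal brain (adjusted p = 9.24e-05), 1.38 ± 0.47 for PDGFB against normal brain (adjusted p = 0.0249), and 2.54 ± 0.43 between the models (adjusted p = 0.00229). The PDGFB call was lost without PDGFB tumor 2 (1.11, adjusted p = 0.0649) or any 1 normal brain (adjusted p = 0.0592 to 0.0658).

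Trem2 and Gpnmb belong to lipid-handling phagocytes. Trem2 (chr17:48346401-48354147), which signals through the adaptor Tyrobp, stood at 35.6, 20.1, 43.1 and 71.3 FPKM (NRAS tumors 1 to 4), 18.3, 6.24, 12.2 and 31.7 (PDGFB tumors 1 to 4) and 10.3, 12.7 and 10.7 (normal brains 1 to 3). PDGFB tumors lay on both sides of normal brain. NRAS tumors were higher than normal brain (1.70 ± 0.48, adjusted p = 0.00967) without overlap, a call lost with the title series as a covariate (adjusted p = 0.0809). Against PDGFB tumors the groups overlapped and the call was narrow (1.34 ± 0.44, adjusted p = 0.0450), being lost without any 1 normal brain, without NRAS tumor 1, 3 or 4 or without PDGFB tumor 1, 2 or 3 (adjusted p = 0.0628 to 0.126). A fit of the 2 tumor models alone lost it too (adjusted p = 0.0886). PDGFB tumors did not pass against normal brain (0.37 ± 0.48, adjusted p = 0.538).

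Gpnmb (chr6:49036546-49070929, plus strand), which melanocytes also express, rose in both models without overlap among the 3 groups. It stood at 42.5, 13.2, 14.6 and 23.2 FPKM (NRAS tumors 1 to 4), 4.14, 6.25, 3.36 and 5.26 (PDGFB tumors 1 to 4) and 0.178, 0.444 and 0.344 (normal brains 1 to 3). The log2 fold change was 4.06 ± 0.34 for NRAS against normal brain (adjusted p = 1.00e-05), 2.10 ± 0.34 for PDGFB against normal brain (adjusted p = 0.000471), and 1.96 ± 0.32 between the models (adjusted p = 0.00186). All 3 calls held in every alternative run. The 5 melanocyte markers summed to 1.25 to 1.68 FPKM in NRAS tumors, 1.68 to 2.54 in PDGFB tumors and 0.718 to 1.36 in normal brain, with Mlana at 0 in all PDGFB tumors. Pmel was the 1 marker of them that was tested; it was higher in both models than in normal brain (0.54, adjusted p = 0.0189 in NRAS tumors, lost without normal brain 1 or 2 or NRAS tumor 1, and 1.09, adjusted p = 0.000435 in PDGFB tumors), and its part in the Gpnmb result was not tested.

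Plac8, which encodes a small cysteine-rich protein of monocytes and other leukocytes, lies on the minus strand at chr5:100553725-100572245. It stood at 31.3, 15.7, 209 and 134 FPKM (NRAS tumors 1 to 4), 1.41, 2.65, 0.889 and 3.93 (PDGFB tumors 1 to 4) and 0.138, 0 and 0.986 (normal brains 1 to 3). NRAS tumors were all above the other libraries, while PDGFB tumor 3 lay below normal brain 3. The log2 fold change was 5.57 ± 0.75 against normal brain (adjusted p = 0.000188) and 4.37 ± 0.70 against PDGFB tumors (adjusted p = 0.00176), and PDGFB tumors did not pass against normal brain (1.2 ± 0.75, adjusted p = 0.195), but passed in a fit of those 2 groups alone (adjusted p = 0.0201) and with a pseudocount of 0.1 (adjusted p = 0.0292).

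Ptprc (chr1:138062861-138175708, minus strand) stood at 9.73, 6.37, 32.7 and 33.3 FPKM (NRAS tumors 1 to 4), 1.81, 1.63, 1.30 and 1.65 (PDGFB tumors 1 to 4) and 0.849, 1.22 and 0.998 (normal brains 1 to 3). Every PDGFB tumor was above every normal brain, by far less than the NRAS tumors. NRAS tumors rose by 3.11 ± 0.47 against normal brain (log2, adjusted p = 0.000344) and by 2.75 ± 0.44 against PDGFB tumors (adjusted p = 0.00173). PDGFB tumors did not pass (0.36 ± 0.47, adjusted p = 0.537), and passed in a fit of those 2 groups alone (adjusted p = 0.0328). Since CD45 is on nearly all leukocytes, other immune cells were read beside it. T and NK cell genes summed to 8.98 to 158 FPKM in NRAS tumors, 0.745 to 2.17 in PDGFB tumors and 2.0 to 7.36 in normal brain, where Cd3d, Cd3e and Cd8b1 were listed at 0. Most of the sum in normal brain was Cd4, at 1.45, 1.80 and 6.86 FPKM (normal brains 1 to 3). Cd4 stood at 0.204 to 0.665 FPKM in PDGFB tumors and was the 1 gene of the list called lower there than in normal brain (-1.49, adjusted p = 0.0341). That call was lost without normal brain 3 (adjusted p = 0.164) and in other alternatives. Of 10 listed T and NK cell genes 8 were tested. Of these, 7 were higher in NRAS tumors than normal brain and 6 higher than in PDGFB tumors, beside 32% and 14.3% of all genes. All tested genes of the list but Cd4 passed the filter on low values only through NRAS tumors. Their counts and p-values thus follow in part from that filter. Cd3g, a chain of the T cell receptor complex, stood at 18.3 ± 21.7 FPKM (SD, n = 4) in NRAS tumors and 0.269 ± 0.182 (n = 4) in PDGFB tumors (log2 fold change 3.26 ± 0.62, adjusted p = 0.00373). B cell genes summed to 1.04 to 6.47 FPKM in NRAS tumors against 0.277 to 2.75 in PDGFB tumors, where Pax5 was at 0, and 0.630 to 0.963 in normal brain, and 1 of the 2 tested, Cd79b, passed in NRAS tumors against PDGFB tumors (0.88, adjusted p = 0.0386). That call was lost in 10 alternatives, among them leaving out any 1 normal brain (adjusted p = 0.0524 to 0.0547), NRAS tumor 3 or 4, or PDGFB tumor 1, 2 or 3. The part of these cells in the Ptprc and Plac8 results was not tested.

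Promoter sequence was at hand for 6 of the 10 members, and 3 are shown because they set genes of unlike pattern side by side: Plac8 and Ptprc, highest in NRAS tumors, and Cd163, highest in PDGFB tumors. Each run is the 250 bases before a RefSeq start site (GRCm38.p6), printed 5′ to 3′ on the strand of the gene. They are at chr5:100572206-100572455 (minus strand), chr1:138175306-138175555 (minus) and chr6:124304401-124304650 (plus). Capitals mark the letters GAGGAA or their reverse complement TTCCTC, the core recognised by PU.1, the myeloid transcription factor encoded by Spi1.
Plac8: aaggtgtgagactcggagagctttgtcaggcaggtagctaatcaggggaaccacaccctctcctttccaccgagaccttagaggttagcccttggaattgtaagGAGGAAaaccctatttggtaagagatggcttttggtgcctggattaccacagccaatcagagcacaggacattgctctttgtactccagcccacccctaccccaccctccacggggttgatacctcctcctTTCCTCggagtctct
Ptprc: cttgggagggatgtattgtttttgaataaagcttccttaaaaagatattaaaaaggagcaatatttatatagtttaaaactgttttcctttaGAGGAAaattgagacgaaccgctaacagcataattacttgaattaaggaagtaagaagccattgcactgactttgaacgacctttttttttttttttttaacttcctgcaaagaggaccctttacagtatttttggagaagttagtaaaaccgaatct
Cd163: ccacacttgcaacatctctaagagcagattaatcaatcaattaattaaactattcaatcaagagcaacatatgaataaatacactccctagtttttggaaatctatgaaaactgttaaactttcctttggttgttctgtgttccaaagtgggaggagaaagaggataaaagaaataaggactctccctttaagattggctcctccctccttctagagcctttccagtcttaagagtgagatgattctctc
The letters begin at base -146 and base -15 in Plac8 and at base -158 in Ptprc, each in 1 of the gene's 2 start-site windows, and were not found in Cd163. They were also found in Mrc1 and Trem2, and in 28.3% of all 32851 promoter windows of 250 bases before and 50 after a start. They were not found in Gpnmb, which was highest in NRAS tumors as well. None of the windows shown, of Plac8, Ptprc or Cd163, held a match on either strand to 3 further motifs. These were the STAT letters (TTC, any 4 bases, GAA, in 6.95% of windows), TTGCNNAA (C/EBP, 10.8%) and TGANTCA (AP-1, 7.81%). The other Plac8 window held a match to the STAT and to the C/EBP letters. A match describes the letters only.

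**Figure D2:**
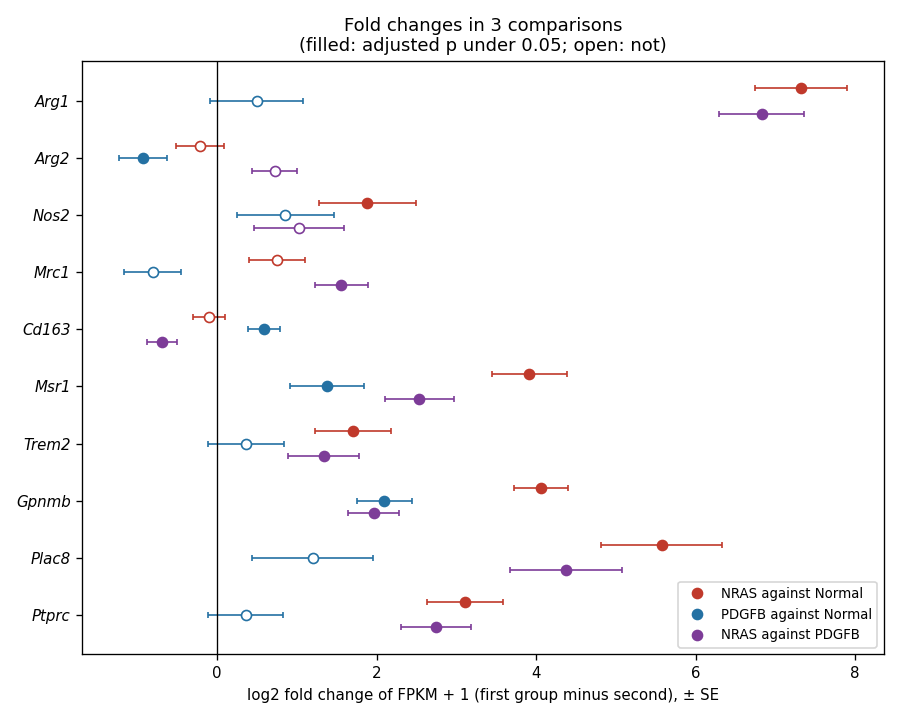
Log2 fold changes of the 10 genes on the log2(FPKM + 1) scale with bars of 1 standard error, in each of the 3 comparisons. Filled points passed the adjusted threshold of 0.05, and Arg1 had the largest differences, 7.32 and 6.83, while Cd163 lay below 0 between the models at -0.69.

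The title series split the libraries in a way that partly follows the groups, so differences were also taken within a series. Among libraries 1834 to 1838, NRAS tumors 1 and 2 against the 3 normal brains gave 7 of 10 members past the threshold, beside 44.9% of all genes in that fit, with Arg1 at 6.66 (adjusted p = 0.00130), Gpnmb at 4.24 (adjusted p = 0.00450), Nos2 at 0.75 (adjusted p = 0.0459) and Ptprc at 2.14 (adjusted p = 0.00411), all as log2 fold changes. Among libraries 2038 to 2046, NRAS tumors 3 and 4 against the 4 PDGFB tumors gave 9 of 10, beside 22% of all genes, with Arg1 at 7.49 (adjusted p = 0.000292), Arg2 at 1.13 (adjusted p = 0.0335), Nos2 at 2.16 (adjusted p = 0.0107) and Cd163 at -0.91 (adjusted p = 0.0192). Trem2 was the member that missed it there (1.85, adjusted p = 0.0518). No series holds both PDGFB tumors and normal brain, so for that comparison series and group cannot be told apart. A fit with the series as a covariate takes the step between series from the NRAS tumors, the only group in both. Its values for PDGFB tumors against normal brain thus depend on how NRAS tumors 1 and 2 differ from 3 and 4. In that fit Ptprc stood at -1.57 (log2, adjusted p = 0.00326), while in FPKM every PDGFB tumor was above every normal brain. The values of Arg1, Nos2, Trem2 and Plac8 were below 0 without passing, and that of Msr1 was 0.08 (adjusted p = 0.930).

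Libraries of a model also differed among themselves. NRAS tumor 2 had the lowest value of the 4 NRAS tumors in 9 of 10 members and the highest in Cd163. NRAS tumor 3 was highest in 4 members (Arg1, Nos2, Msr1 and Plac8), NRAS tumor 4 in 3 (Arg2, Trem2 and Ptprc) and NRAS tumor 1 in 2 (Mrc1 and Gpnmb). PDGFB tumor 2 was highest of its model in Arg1, Msr1 and Gpnmb and lowest in Arg2, Mrc1 and Trem2.

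Levels were also set against Ptprc, as FPKM of a member per FPKM of Ptprc in the same library, which is a description with no test. Arg1 reached 5.96 to 21.9 per Ptprc in NRAS tumors, 0.0855 to 2.08 in PDGFB tumors and 0.169 to 0.519 in normal brain. Plac8 reached 2.46 to 6.40, 0.682 to 2.38 and 0 to 0.988 in the same order. These were the 2 members higher per Ptprc in NRAS than in PDGFB tumors on average, by 5.18 and 1.65 on the log2 scale.

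The other members were on average lower per Ptprc in NRAS than in PDGFB tumors. Ptprc itself was higher in NRAS tumors by 2.75 (log2), so a member that rose less comes out lower per Ptprc. Trem2 per Ptprc ran from 1.32 to 3.66 in NRAS tumors, 3.82 to 19.2 in PDGFB tumors and 10.4 to 12.1 in normal brain. Mrc1 ran from 0.0971 to 0.815, 0.196 to 1.02 and 2.02 to 2.32. Cd163 ran from 0.00477 to 0.129, 0.531 to 1.33 and 0.419 to 0.690, so that all NRAS tumors lay below all other libraries. Per Ptprc, Msr1 overlapped between the models (0.778 to 1.87 and 0.743 to 2.61) and stood above normal brain in both (0.0891 to 0.197). Set against Csf1r, the receptor of macrophages and microglia for colony-stimulating factor 1, Arg1 and Plac8 were higher in NRAS tumors by 6.26 and 2.73 (log2), and Msr1 by 0.80. Mrc1 turned from -0.88 per Ptprc to 0.20 per Csf1r, and Gpnmb went from -1.17 to -0.09. Per FPKM of the lysosomal gene Cd68, group means were lower in NRAS than in PDGFB tumors only for Cd163 and Trem2.

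**Figure D3:**
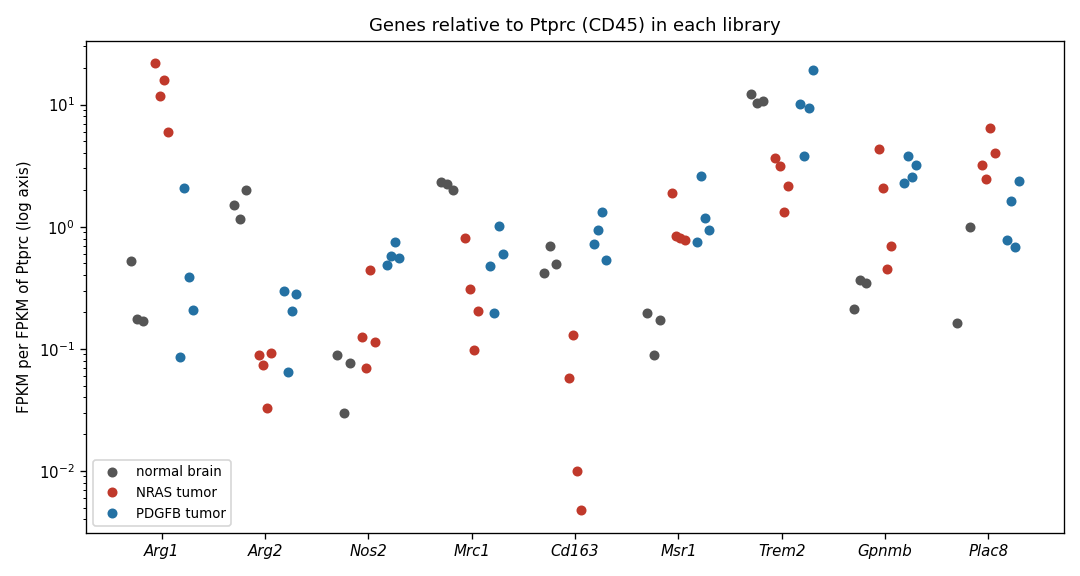
FPKM of each gene per FPKM of Ptprc in the same library on a log axis, 1 point per library, with Plac8 in normal brain 2 (0) not drawn. Arg1 lay at 5.96 or more in NRAS tumors and at 2.08 or less elsewhere, while Cd163 lay at 0.129 or less in NRAS tumors and at 0.419 or more elsewhere.

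Genes of the surrounding pathways were read as lists, each described by its counts and its median log2 fold change. The counts stand beside 32% of all genes higher and 30.3% lower in NRAS tumors against normal brain, 29.3% higher and 29.2% lower for PDGFB against normal brain, and 14.3% and 12.2% for NRAS against PDGFB. Genes near 0 in normal brain entered only where tumors carried them, so the counts describe the tested genes and not whole pathways. Of 15 core macrophage genes, which include Cd68, Csf1r and Spi1, 15 were higher in NRAS tumors than normal brain and 14 higher than in PDGFB tumors, with medians of 2.58 and 2.08 (log2). In PDGFB tumors 2 were higher than in normal brain: Lyz2, the lysozyme of myeloid cells (2.55, adjusted p = 0.0161), and the lysosomal Cd68 (1.12, adjusted p = 0.0305). Without normal brain 3 neither passed, and Cd68 did not pass without any other 1 normal brain or PDGFB tumor 1 or 4 either. The list summed to 413 to 2668 FPKM in NRAS tumors, 147 to 266 in PDGFB tumors and 105 to 111 in normal brain. Lyz2 and Ly6c2 have near-identical neighbours, so their values are uncertain.

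Genes of arginine and polyamine metabolism had medians of 1.02 (NRAS) and 0.93 (PDGFB) against normal brain, and 0.39 between the models. Of all genes, 62.3% (NRAS) and 58.5% (PDGFB) were called against normal brain, 32% and 29.3% as higher. Of 23 genes 19 were tested, and 11 were higher and 1 lower in NRAS tumors than normal brain, 10 higher and 3 lower in PDGFB tumors, and 5 higher and 6 lower in NRAS than in PDGFB tumors. Odc1, the ornithine decarboxylase that starts polyamine synthesis from the product of arginase, stood at 214 ± 67.3 FPKM (SD, n = 4) in NRAS tumors, 76.9 ± 9.38 (n = 4) in PDGFB tumors and 23.5 ± 3.61 (n = 3) in normal brain. It was higher in NRAS than in PDGFB tumors by 1.42 ± 0.22 (log2, adjusted p = 0.00138). Aldh18a1 and Pycr1, enzymes of proline synthesis, were higher in PDGFB tumors than normal brain by 2.99 ± 0.30 (adjusted p = 2.80e-05) and 2.56 ± 0.26 (adjusted p = 3.34e-05). Ddah1, which breaks down methylated arginines that inhibit nitric oxide synthases, was lower in NRAS than in PDGFB tumors (54.9 ± 20.8 against 127 ± 7.62 FPKM, adjusted p = 0.00548). The count higher in NRAS than in PDGFB tumors was 3 without NRAS tumor 4 or PDGFB tumor 3.

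Of 22 inducers and regulators of Arg1 and Nos2, 18 were tested, and 15 were higher in NRAS tumors than normal brain, 9 higher and 1 lower in PDGFB tumors, and 14 higher in NRAS than in PDGFB tumors. Their medians were 1.82, 0.71 and 1.24. Irf1, an interferon-induced transcription factor needed for Nos2, stood at 150 ± 145 FPKM in NRAS tumors, 18.4 ± 16.4 in PDGFB tumors and 3.0 ± 0.265 in normal brain. The shared receptor chain Csf2rb differed between the models by 2.82 ± 0.33 (log2, adjusted p = 0.000442). Ifng, the interferon gamma gene, was listed at 0 in every PDGFB tumor and normal brain and at 0.717, 0.451, 13.4 and 8.24 FPKM in NRAS tumors 1 to 4, named after its values were seen. The 9 in PDGFB tumors became 5 without normal brain 2, normal brain 3 or PDGFB tumor 2.

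Most tested genes of both the alternative and the classical activation list were higher in NRAS tumors. Of 16 tested alternative genes 15 were higher than in normal brain and 13 higher than in PDGFB tumors, and of 15 tested classical genes 13 and 13. The medians were 2.49 and 2.47 for the alternative list and 2.44 and 2.07 for the classical list, and 0.23 and 0.28 in PDGFB tumors against normal brain. Among the first, Clec7a, the beta-glucan receptor dectin-1, stood at 102 ± 101 FPKM in NRAS tumors and 1.06 ± 1.2 in PDGFB tumors (log2 fold change 5.39 ± 0.51, adjusted p = 0.000163). Chil3, a chitinase-like secreted protein, stood at 85.1 ± 93.0 and 0.253 ± 0.347 FPKM (adjusted p = 0.00583) and was listed at 0 in normal brain. Among the second, Cxcl10, an interferon-induced chemokine, stood at 313 ± 483 and 5.69 ± 5.95 FPKM (4.62 ± 0.90, adjusted p = 0.00429). In PDGFB tumors 4 alternative genes were higher and F13a1 lower than in normal brain, and 2 classical genes were higher (Socs3 and Il1a). Il1a was low there (0.961 ± 0.320 against 0.385 ± 0.163 FPKM, adjusted p = 0.0296). That call was lost without normal brain 1 or 3 or PDGFB tumor 1 or 3 (adjusted p = 0.0558 to 0.121), and in other alternatives.

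The TREM2 list, which holds its adaptor and genes of lipid-laden phagocytes, had 17 of 20 genes higher and Lpl lower in NRAS tumors against normal brain, and 8 higher and Lpl lower in PDGFB tumors. Between the models 14 were higher in NRAS tumors, and the medians of these comparisons were 1.99, 0.47 and 1.31. Lgals3, the galectin-3 gene, stood at 106 ± 20.7 FPKM in NRAS tumors, 8.70 ± 3.18 in PDGFB tumors and 0.904 ± 0.329 in normal brain. The osteopontin gene Spp1 stood at 278 ± 44.5, 109 ± 10.5 and 7.73 ± 5.07 FPKM, with PDGFB tumors higher than normal brain by 3.80 ± 0.29 (log2, adjusted p = 4.87e-06). Of 13 tested scavenger and phagocytic receptors, 10 were higher in NRAS tumors than normal brain and 7 higher than in PDGFB tumors. The first count was 6 without normal brain 1, and the medians were 0.95 and 0.75. In PDGFB tumors against normal brain 2 were higher and 1 lower, with a median of 0.16. Scarb1, a receptor for high-density lipoprotein, was higher (1.71 ± 0.17, adjusted p = 2.51e-05), as was Lrp1 (0.73, adjusted p = 0.0310), a call lost without normal brain 1 or 3 or PDGFB tumor 1, 2 or 3. Mertk, a receptor for apoptotic cells, was the 1 lower (3.97 ± 0.244 against 10.4 ± 1.40 FPKM, adjusted p = 0.00091).

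Markers that part monocytes from microglia were read beside Plac8 and Arg1. Of 11 inflammatory monocyte genes 10 were higher in NRAS tumors than normal brain and 9 higher than in PDGFB tumors, and the list summed to 79.4 to 280 FPKM, against 42.9 to 70.7 in PDGFB tumors and 13.1 to 17.5 in normal brain. Vcan, which encodes a matrix proteoglycan that is not particular to monocytes, made up 43.7% to 73.2% of the sum in PDGFB tumors and 7.12% to 22.9% in NRAS tumors. Its part aside, the sums were 61.2 to 260 (NRAS), 18.4 to 36.8 (PDGFB) and 7.33 to 11.9 FPKM (normal). The list's medians were 2.14 and 2.0, and 0.13 in PDGFB tumors against normal brain. Ms4a6c, a membrane protein of monocytes, stood at 39.9 ± 23.8 FPKM in NRAS tumors and 4.83 ± 2.03 in PDGFB tumors (log2 fold change 2.63 ± 0.43, adjusted p = 0.00194). Of 11 homeostatic microglia genes 4 were higher and 2 lower in NRAS tumors than normal brain, and 1 higher and 4 lower in PDGFB tumors, with medians of 0.28 and -0.62. These 6 and 5 called genes are no larger a share than the 62.3% and 58.5% of all genes. P2ry12, a nucleotide receptor of resting microglia, was lower in PDGFB tumors than normal brain (10.1 ± 5.30 against 22.8 ± 3.98 FPKM, adjusted p = 0.0305), a call lost without any 1 normal brain (adjusted p = 0.0529 to 0.0978). Between the models 6 microglia genes were higher and 1 lower in NRAS tumors, with a median of 1.08, beside 14.3% and 12.2% of all genes. Olfml3 (1.69, adjusted p = 0.00143) and Siglech (1.45, adjusted p = 0.0103) were among the 6, and Fcrls was the 1 lower (1.13 ± 1.52 against 7.38 ± 3.83 FPKM, adjusted p = 0.0111). The count lower in PDGFB tumors was 2 without normal brain 3, and the part of either cell type in the results for the members was not tested.

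Of 11 kinases and partners of CD45, 9 were higher in NRAS tumors than normal brain, and 3 were higher and Skap1 lower in PDGFB tumors. Between the models 8 were higher and Fyn lower in NRAS tumors. The counts higher stand beside 32%, 29.3% and 14.3% of all genes, and the medians were 1.55, 0.33 and 1.28. Lyn, a Src-family kinase, was higher in PDGFB tumors than normal brain by 2.61 ± 0.19 (adjusted p = 4.18e-06), although Ptprc itself did not pass there.

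**Figure D4:**
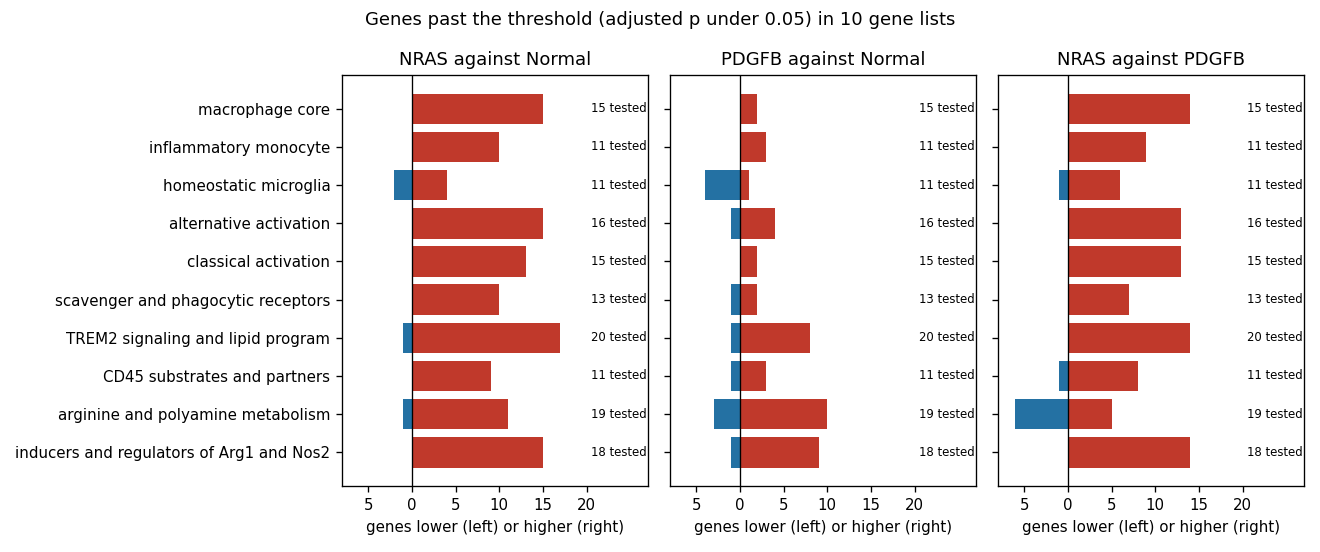
Bars count the tested genes of 10 lists that were higher (to the right) or lower (to the left) in each of the 3 comparisons at an adjusted p under 0.05. All 15 core macrophage genes were higher in NRAS tumors than normal brain, against 2 in PDGFB tumors.

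Genes whose levels followed Arg1 most closely were ranked among 12010 genes, as a description, since the libraries share their model, their cell mixture and their depth. Over the 8 tumors, with each model's mean subtracted, the 5 highest Pearson correlations of log2(FPKM + 1) were those of Tap1 (0.992), Irgm1 (0.989), H2-Q9 (0.984), Ifi47 (0.982) and Tor3a (0.979). Tap1, the peptide transporter that loads class I molecules, stood at 75.3, 21.4, 176 and 74.4 FPKM (NRAS tumors 1 to 4) and 6.58, 29.9, 7.17 and 6.49 (PDGFB tumors 1 to 4), so NRAS tumor 2 was low and PDGFB tumor 2 high, as for Arg1. Over all 11 libraries, the 5 highest Spearman correlations were those of Timd4 (0.966), Apol9a (0.958), H2-Q8 (0.952), Tnfaip3 (0.945) and Nfkbia (0.945). H2-Q8, H2-Q9 and Apol9a have near-identical copies and are uncertain. Among the members, Msr1 was closest to Arg1 by both measures (0.897 and 0.864), Ptprc gave 0.598 and 0.682, and Cd163 gave -0.244 and -0.418.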

How the data were processed

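RNA of 11 mouse brain libraries (3 normal, 4 NRAS, 4 PDGFB) was sequenced, and the authors deposited 1 table of FPKM. TopHat2 2.0.13, Cufflinks 2.2.1 and mm10 are named, per the submitters' processing notes, while nothing in the sources used here gives settings, annotation or strand use. Since FPKM is relative to a library's total, abundant transcripts lower the others. Of 24347 entries, 27 whose names had become dates were left out, and 14491 genes with at least 1 FPKM in 3 libraries were tested. No read counts were used, and low values rest on few reads: 81.7% to 85.5% of ratios between low values came within 0.02 (log2) of those that 1 to 4 reads give.

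Differences of log2(FPKM + 1) were tested, two-sided, with limma 3.58.1 (R 4.3.3, mean-variance trend) over all 11 libraries, with Benjamini-Hochberg adjustment over all genes and a threshold of 0.05. The pseudocount of 1 understates the change of low genes. Tested on simulated data of 14491 genes with 200 changed, the fit found, of 2-fold and 4-fold changes, 54% and 91% (NRAS against normal), 64% and 90% (PDGFB against normal) and 56% and 91% (between the models). Changes were planted only in genes of higher level in the second group than most members had in normal brain or PDGFB tumors. Far fewer genes were changed than the data called, so these rates do not describe the members. The members were named by symbol, other genes were the largest called changes of each list, up to 3, and the 5 most like Arg1 by each measure. Members and lists were chosen with earlier results of these data known. Positions are GENCODE M21 (GRCm38), and sequences were compared with Biopython 1.88. Alternatives were pseudocounts, filters, scalings, variance models, blocks, the title series and each library left out. Same-numbered samples were checked and did not pair.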

Additional observations from a re-analysis of the deposited data

Results flagged for a closer look

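Among the 20 sets of 4 tumor values of the members, taken as FPKM, 2 held a library far from the other 3, both in PDGFB tumor 2. Chance gives about 1 set in 20 only if values are normal and sets independent. Neither was checked, and the sets share libraries, so that rate is a rough guide. The gaps were not taken on the log2 scale used for the tests. Arg1 stood at 3.39 FPKM there, and the gap to the next tumor was 0.891 of the range of the 4 values, above the limit of 0.829. Msr1 stood at 4.26 FPKM, with a gap of 0.928 of the range. Without that tumor, PDGFB tumors differed from normal brain by 0.06 (log2, adjusted p = 0.933, limma) in Arg1 and by 1.11 (adjusted p = 0.0649) in Msr1.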

How the results depend on the processing

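Of 30 member results, 19 passed the threshold, 12 of them under every alternative run; of 698 alternative values 638 kept direction and call, 31 lost the call, 19 gained it and 10 changed sign. With the title series as a covariate, PDGFB tumors against normal brain gave log2 fold changes of -0.83 for Arg1, -1.41 for Nos2, -0.66 for Trem2, -1.66 for Plac8, -1.57 for Ptprc and -0.11 for Irf1. In that fit 4768 genes were called in place of 8470, and the cause was not tested. The fit takes the step between series only from NRAS tumors 1 and 2 against NRAS tumors 3 and 4. Cd163 in NRAS tumors against normal brain, at -0.10, was 0.12 with that covariate and within a series, and ran from -0.21 to 0.02 with single libraries left out (0.020 without normal brain 2, 0.0031 without NRAS tumor 4). With the replicate number as a block it was 0.0027; the numbers gave correlations of -0.499 to 0.158 over 10 same-numbered pairs and -0.375 to 0.479 over other pairs, and the block moved the members called from 7 to 7, 4 to 3 (Msr1, adjusted p = 0.0745) and 8 to 8. Members called in PDGFB tumors against normal brain, 4, became 2 with a filter of 5 FPKM, 8 in a fit of those groups alone, and 1 to 5 with single libraries left out (2 without normal brain 1 or PDGFB tumor 2, 1 without normal brain 3). Per Csf1r in place of Ptprc, the log2 difference between models was -0.37 for Arg2, -0.93 for Nos2, 0.80 for Msr1, -0.86 for Trem2 and 2.73 for Plac8. Depth limits the values under 1 FPKM, among them Cd163 and, outside NRAS tumors, Arg1 and Nos2.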

Other observations

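Other leukocytes and vessels were read from their own marker lists. Of 4 tested neutrophil genes, all 4 were higher in NRAS tumors than normal brain and 2 higher than in PDGFB tumors, beside 32% and 14.3% of all genes. S100a8, S100a9 and Retnlg passed the filter on low values only with the NRAS tumors counted, so these counts follow in part from that filter. Retnlg, a secreted protein of neutrophils, ranged from 3.23 to 49.2 FPKM in NRAS tumors, from 0 to 0.887 in PDGFB tumors and from 0 to 0.169 in normal brain, and was higher in NRAS than in PDGFB tumors (log2 fold change 3.34 ± 0.60, adjusted p = 0.00292, limma). Elane, an elastase of immature neutrophils, was listed at 0 in all 11 libraries.

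Of 4 tested dendritic cell genes, 2 were higher in NRAS tumors than normal brain and 3 higher than in PDGFB tumors, beside 32% and 14.3% of all genes. Itgae, counted in both, passed the filter on low values only through NRAS tumors. In PDGFB tumors 2 were lower than in normal brain, Flt3 and Zbtb46, beside 29.2% of all genes. Clec9a, Xcr1 and Cd209a were too low to be tested. Flt3, the receptor on which dendritic cell development depends, stood at 3.56 ± 2.63 FPKM in NRAS tumors, 0.450 ± 0.332 in PDGFB tumors and 3.37 ± 0.761 in normal brain, and was lower in PDGFB tumors than normal brain by 1.60 ± 0.37 (log2, adjusted p = 0.0036). Among 5 tested genes of macrophages at the brain's borders, 1 was higher and 1 lower in NRAS tumors than normal brain, beside 32% and 30.3% of all genes. These were the chemokine Ccl8 (5.08 ± 0.79, adjusted p = 0.000393) and Cbr2 (-1.09 ± 0.28, adjusted p = 0.0064). Cbr2 was lower in PDGFB tumors as well (-0.97 ± 0.28, adjusted p = 0.0121). That call was lost without normal brain 1 and with the title series as a covariate. Its means were 0.417 (NRAS), 0.576 (PDGFB) and 2.03 FPKM (normal). Of 7 endothelial genes 3 were higher and 1 lower in NRAS tumors, and 2 higher and 2 lower in PDGFB tumors, than in normal brain, shares no larger than the 62.3% and 58.5% of all genes called.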
